A study of Homo sapiens with 8 samples.

Results

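The expression of 41 genes that mark the absorptive and secretory lining of the human colon was examined in DLD1 cells, an established colorectal cancer line, after depletion of UHRF1, treatment with trichostatin A (TSA), or both. The genes were taken as a list of intestinal transcription factors, brush border, transport, surface and goblet-associated genes, and were found on the arrays by their exact gene name. The list was chosen with earlier results of these data known. Its counts and medians, set beside those of all probes, are therefore descriptive and no independent test. All 41 were present, with 48 of the 50599 probes that were not controls. Of the 8 arrays, 2 were siCONT with mock, 2 were UHRF1 depletion with mock, 2 were siCONT with TSA and 2 were UHRF1 depletion with TSA. Every culture had been transfected with siRNA, either a control siRNA (siCONT) or an siRNA against UHRF1, and after 48 h had received 300 nM TSA or ethanol (mock) for a further 24 h. The depleted groups each held 1 array with UHRF1 siRNA1 (siUHRF1-1) and 1 with UHRF1 siRNA2 (siUHRF1-2), so that the spread within them is that between siRNAs. UHRF1 is the protein that guides the maintenance DNA methyltransferase to newly copied DNA, and TSA inhibits histone deacetylases (HDACs). All groups come from 1 cell line, and no normal colon was measured.

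The colon is lined by a single layer of epithelial cells that is renewed from stem cells at the base of the crypts. Most of its cells are absorptive colonocytes, which carry a brush border of actin-filled microvilli and take up water, salt and short-chain fatty acids, and goblet cells secrete the mucus that covers them. The homeobox factors CDX1 and CDX2 and the nuclear receptors HNF4A and HNF4G hold intestinal identity, whereas ATOH1 and SPDEF drive the secretory branch. Colorectal cancer cells keep this programme to varying degrees.

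The level of a gene is its log2 intensity after subtracting the 75th percentile over the array, so that a level of 0 is brighter than 75% of the probes, and levels of different genes are not compared. A change is a difference of group means on this log2 scale, and it was called when limma gave an adjusted p under 0.05 and the size was at least 2-fold. Each array had 43.3% to 48.0% of its probes well above background. The siCONT arrays of each agent differed by about the noise between repeated spots (1.08 and 1.18 times that noise), against 13.2 and 10.4 times for the arrays of the siRNAs to UHRF1. The main fit kept all 8 arrays, with 4 residual degrees of freedom, so its p-values treat the siCONT arrays of an agent as separate samples. Each comparison was therefore also fitted with these averaged to 1 sample, and that count stands beside the main one. The slide held the mock groups in row 1 and the TSA groups in row 2, so that TSA and slide row cannot be told apart. In both rows the siCONT arrays lay in columns 1 and 2 and the depleted arrays in columns 3 and 4. Depletion and slide column therefore cannot be told apart either. The target gene UHRF1 had levels of 1.98 and 2.01 in siCONT with mock, 0.34 and -0.02 in depletion with mock, 1.04 and 1.01 in siCONT with TSA, and -1.56 and -2.14 in depletion with TSA. It was thus lowest under depletion plus TSA, and its depletion was seen with both agents (change -1.83, SE 0.22, adjusted p 0.012 under mock, and -2.87, SE 0.22, adjusted p 0.00234 under TSA). All 8 general epithelial markers that were examined (EPCAM, CDH1, KRT8, KRT18, KRT19, CLDN3, CLDN7 and KRT20) were well above background on all arrays.

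Of the 41 members, 20 were well above background on all 8 arrays, 11 on some arrays and 10 on none. The 10 undetected members, each by all of its probes, were ATOH1, the carbonic anhydrases CA1 and CA4, the chloride and bicarbonate exchanger SLC26A3, the sodium and proton exchanger SLC9A3, CLCA4, MS4A12, uroguanylin (GUCA2B), the intestinal fatty acid binding protein FABP2 and the RNA editing cofactor A1CF. In the role of carbonic anhydrases and ion or water transport, 6 of 9 members were undetected on all arrays. The count was 0 of 9 among surface glycoproteins and adhesion proteins and 0 of 6 among secretory and goblet-associated genes. The water channel AQP8 was above background on 2 arrays and guanylin (GUCA2A) on 3, never on both arrays of a group, and they were not tested. In these bulk samples, fewer cells of a type and less RNA per cell cannot be told apart.

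**Figure D1:**
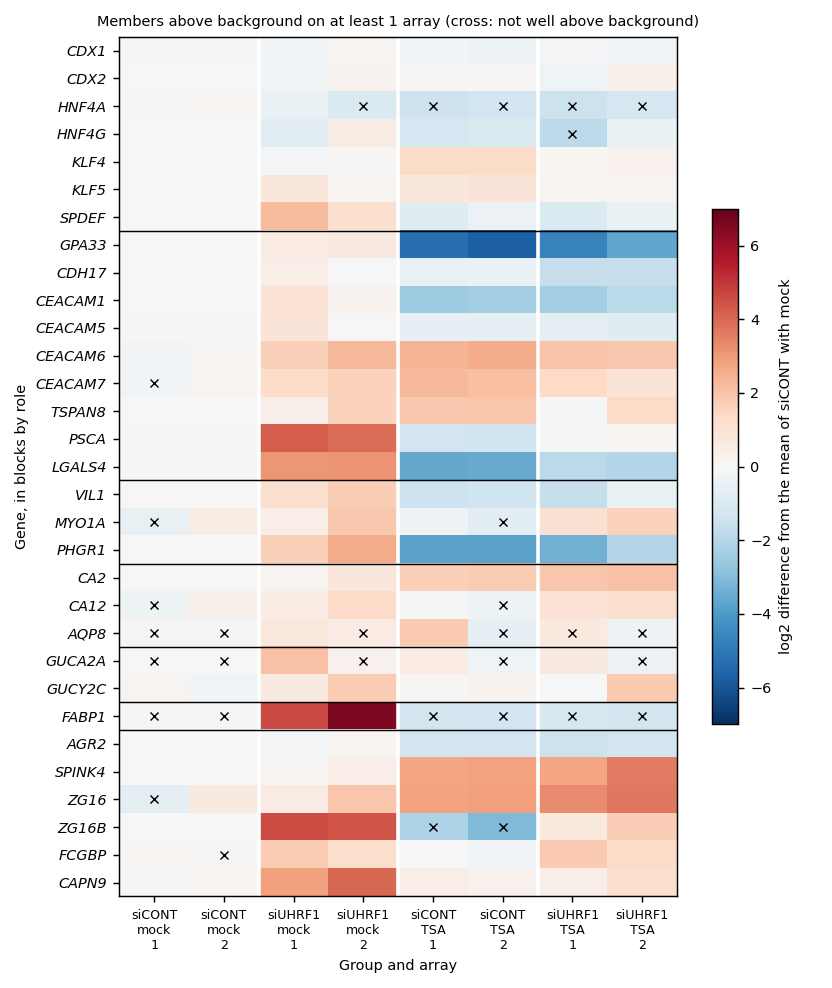
Heat map of the 31 members above background on at least 1 array. Columns are the 8 arrays in their 4 groups, rows are genes in blocks by role, colour is the log2 difference from the mean of siCONT with mock, and a cross marks an array on which the gene was not well above background. FABP1, ZG16B, PSCA, CAPN9 and LGALS4 are red in UHRF1 depletion with mock, GPA33, PHGR1 and LGALS4 are blue on all TSA arrays, and SPINK4 and ZG16 are red on all TSA arrays.

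Among the lineage factors, the homeobox gene CDX2 had levels of 5.94 and 5.96 in siCONT with mock, 5.71 and 6.20 in depletion with mock, 6.03 and 6.01 in siCONT with TSA, and 5.63 and 6.31 in depletion with TSA. The siCONT arrays lay between those of the siRNAs in both agents, and no comparison called CDX2 (changes of -0.05 to 0.07, SE 0.26, or 0.37 for the interaction). The brighter probe of CDX1 lay between -1.23 and -0.67 on all arrays and was not called either. The other CDX1 probe (chr5:149563427-149563486, hg19) was not above background on any siCONT array or on the arrays of depletion with TSA, but had levels of -2.53 and -3.15 in depletion with mock. It was at least 1.47-fold higher there than in siCONT with mock (fitted change 2.48, adjusted p 0.0149, or 0.236 with the siCONT arrays averaged), so the probes of CDX1 disagree. The dimmer probe entered the test only through depletion with mock, in which it was higher.

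HNF4A, which drives enterocyte genes, had levels of -2.75 and -2.50 in siCONT with mock and of -3.06 and -3.66 in depletion with mock. On all 4 TSA arrays it was not well above background, at -4.05 and -3.95 in siCONT and -4.12 and -3.78 in depletion. It was thus at least 2.16-fold lower with TSA in siCONT cells (adjusted p 0.00652). HNF4A entered that test only through siCONT with mock, in which it was higher, so nothing is read from its call. Its paralog HNF4G lay between -4.37 and -2.06 and was called in no comparison, with differences between the siRNAs of 1.26 under mock and 1.32 under TSA. KLF5, a factor of proliferating crypt cells, had levels of 3.06 and 3.01, 3.82 and 3.24, 3.85 and 3.93, and 3.21 and 3.20 in the same order of groups, and no comparison called it. KLF4, a factor of differentiating and goblet cells, had 1.67 and 1.75 in siCONT with mock, 1.55 and 1.80 in depletion with mock, 2.99 and 3.0 in siCONT with TSA, and 1.83 and 2.00 in depletion with TSA. For KLF4 the siCONT arrays with TSA lay above all others.

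Promoter sequences were examined next, because DNA methylation and histone acetylation both act on promoters. RefSeq promoter sequences (GRCh38.p14) were at hand for 30 of the 41 members, with 34 promoters. In the 250 bases before the start, the median ratio of observed to expected CpG dinucleotides was 0.28 over the members' promoters and 0.56 over all 35116 promoters in the table. A ratio of at least 0.6 was found in 5 of the 34 (14.7%), against 47.5% of all. A CDX-type motif, TTTATNG on either strand, was held by 10 of the 34 (29.4%), against 8.93% of all promoters. TATAAA on the gene's strand was held by 9 of the 34 (26.5%), against 6.80% of all. The HNF4-type motif CAAAGTCCA, on either strand, was held by 1 (that of MYO1A) and by 0.325% of all promoters. The GC box GGGCGG, on either strand, was held by 8 (23.5%), against 42.6% of all. TTTATNG read on the other strand can overlap TATAAA, and in FABP1, MS4A12, SPINK4, KLF5 and MYO1A the same bases were counted in both. A match is a stretch of letters and no evidence of binding, and methylation was not measured in these files. The promoters of 4 members with large changes are given below, the 250 bases before the start on the gene's strand, with matches to TTTATNG and TATAAA in capitals.
GPA33, chr1:167090378-167090627, minus strand: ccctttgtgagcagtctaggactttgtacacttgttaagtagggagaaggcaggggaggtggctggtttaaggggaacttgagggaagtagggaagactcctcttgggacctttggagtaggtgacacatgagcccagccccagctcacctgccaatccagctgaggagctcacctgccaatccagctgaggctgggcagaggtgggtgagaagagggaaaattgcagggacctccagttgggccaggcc
LGALS4, chr19:38812946-38813195, minus strand: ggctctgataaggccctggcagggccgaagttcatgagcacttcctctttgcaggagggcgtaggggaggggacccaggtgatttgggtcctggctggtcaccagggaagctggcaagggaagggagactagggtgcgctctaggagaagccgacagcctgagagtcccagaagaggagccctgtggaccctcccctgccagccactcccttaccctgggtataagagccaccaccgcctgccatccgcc
FABP1, chr2:88128063-88128312, minus strand: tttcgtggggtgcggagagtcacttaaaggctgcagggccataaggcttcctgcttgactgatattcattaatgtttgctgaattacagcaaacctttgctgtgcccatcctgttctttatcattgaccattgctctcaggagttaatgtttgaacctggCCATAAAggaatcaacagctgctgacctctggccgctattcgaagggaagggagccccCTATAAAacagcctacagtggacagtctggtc
ZG16B, chr16:2830053-2830302, plus strand: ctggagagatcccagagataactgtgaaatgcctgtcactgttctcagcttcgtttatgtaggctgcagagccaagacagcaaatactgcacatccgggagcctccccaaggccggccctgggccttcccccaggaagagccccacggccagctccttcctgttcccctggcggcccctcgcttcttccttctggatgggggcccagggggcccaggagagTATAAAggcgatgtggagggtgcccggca
The GPA33 stretch holds no CpG and no match, that of FABP1 holds 2 CDX-type matches, starting 90 and 32 bases before the start, and that of ZG16B holds TATAAA starting 29 bases before it.

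To learn what the loss of UHRF1 alone did to these genes, depletion was compared with siCONT under mock. A total of 10 members rose and 0 fell, led by the fatty acid carrier FABP1 (at least 22.3-fold higher), the secreted lectin ZG16B (22.5-fold), the surface protein PSCA (16.9-fold), the calpain CAPN9 (11.0-fold) and the lectin LGALS4 (8.60-fold). The others were the brush border gene PHGR1 (4.33-fold), the adhesion molecules CEACAM6 (3.92-fold) and CEACAM7 (2.74-fold), the goblet cell factor SPDEF (3.17-fold) and the mucus protein FCGBP (2.83-fold). FABP1, CEACAM7 and FCGBP entered this test only through depletion, the group in which they were higher. These 10 were among 29 members tested, 12 being too dim, and 4.12% of all tested probes were called, 3.13% higher and 0.987% lower. With the siCONT arrays averaged, limma called 0 of the members and 0.0223% of all probes. The median change over the members tested was 0.99, against -0.10 over all probes tested.

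FABP1, the liver-type fatty acid binding protein, was not above background in siCONT with mock (-4.45 and -4.59), had levels of 0.12 and 2.04 in depletion with mock, and was not above background on any TSA array (-5.86 to -5.65). It was thus seen only with depletion under mock, at a higher level with siUHRF1-2 than with siUHRF1-1. It entered the test only through that group, so nothing is read from its call. Its fitted change was 4.65 without siUHRF1-2 and 6.56 without siUHRF1-1. The second FABP1 probe was not above background on any array. ZG16B had levels of -2.17 and -2.21 in siCONT with mock and 2.37 and 2.22 in depletion with mock (change 4.49, SE 0.41, adjusted p 0.0074). The arrays of both siRNAs lay far above those of siCONT and close to each other. CAPN9, a calpain of the digestive tract, had -2.66 and -2.40 in siCONT with mock and 0.36 and 1.49 in depletion with mock (change 3.46, SE 0.41, adjusted p 0.0117).

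PSCA, a lipid-anchored surface protein, had levels of 0.96 and 1.16 in siCONT with mock and 5.32 and 4.96 in depletion with mock (change 4.08, SE 0.17, adjusted p 0.00198). LGALS4, a lectin that takes part in delivering proteins to the apical surface of enterocytes, had 1.87 and 2.05 in siCONT with mock and 5.04 and 5.09 in depletion with mock (change 3.1, SE 0.13, adjusted p 0.00198). For both genes the difference between the siRNAs was small beside that from siCONT. PHGR1 had 4.75 and 4.72 in siCONT with mock and 6.39 and 7.31 in depletion with mock (change 2.12, SE 0.47, adjusted p 0.0479). CEACAM6, one of a family of cell adhesion molecules on chromosome 19, had -1.77 and -1.42 in siCONT with mock and 0.06 and 0.69 in depletion with mock (change 1.97, SE 0.24, adjusted p 0.012). SPDEF had -1.85 and -1.96 in siCONT with mock and 0.29 and -0.77 in depletion with mock (change 1.66, SE 0.37, adjusted p 0.0473), so its rise was smaller with siUHRF1-2. The limma call of SPDEF was lost under quantile normalization (adjusted p 0.0642) and median scaling (0.0791). Under normexp background correction the changes were 0.78 for SPDEF, 0.44 for FCGBP and 0.33 for CEACAM7, and none of these was called.

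The actin bundler villin (VIL1) had levels of 2.60 and 2.60 in siCONT with mock and 3.72 and 4.33 in depletion with mock, and this change of 1.42 (SE 0.37) did not pass (adjusted p 0.0669). Both arrays of depletion nevertheless lay above both of siCONT. Of the siRNAs, siUHRF1-2 gave the higher value for 20 of the 29 tested members, and for 8 the siRNAs lay over 2-fold apart, the widest being FABP1 (1.92 on the log2 scale), MYO1A (1.42) and ZG16 (1.35). After averaging of the siCONT arrays the adjusted p was 0.0555 for PSCA, 0.062 for LGALS4 and 0.0847 for ZG16B. Leaving out any one siCONT array, which leaves 1 in its group, lowered the number of members called and also that of all probes called (main value 923).

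**Figure D2:**
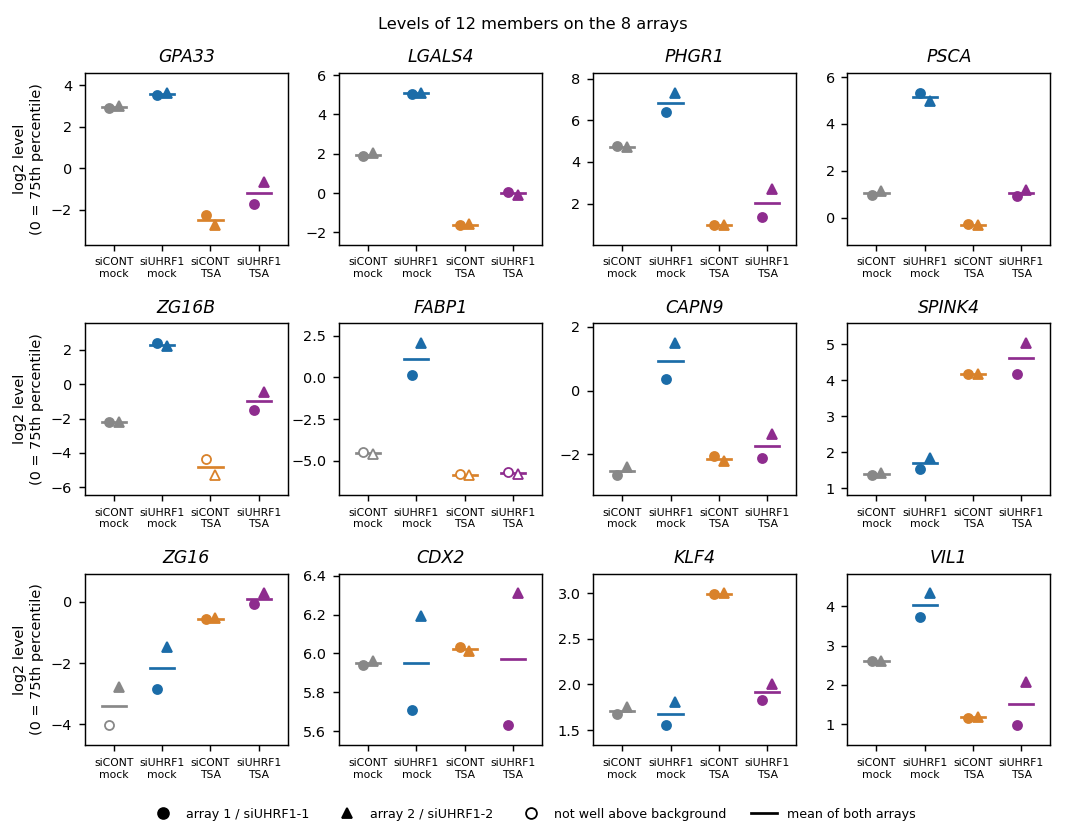
Levels of 12 members on the 8 arrays. The y axis is the log2 intensity relative to the array's 75th percentile, a circle is array 1 (siUHRF1-1 in the depleted groups), a triangle array 2 (siUHRF1-2), an open symbol an array on which the gene was not well above background, and a line the mean of both arrays. LGALS4, PHGR1, PSCA and ZG16B are highest in UHRF1 depletion with mock and lowest in siCONT with TSA, SPINK4 and ZG16 are higher with TSA in both backgrounds, and CDX2 stays between 5.63 and 6.31.

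To see what HDAC inhibition did where UHRF1 was present, siCONT cells with TSA were set against siCONT cells with mock. Of 26 tested members, 16 were called, 7 higher and 9 lower, where 18.6% of all tested probes were called, 10.4% higher and 8.22% lower. Averaging the siCONT arrays left 2 of these calls, GPA33 and LGALS4, and 1.56% of all probes. The surface antigen GPA33 fell most (44.9-fold), followed by PHGR1 (13.6-fold), LGALS4 (11.9-fold), CEACAM1 (5.64-fold), ZG16B (at least 2.91-fold), VIL1 (2.68-fold), PSCA (2.56-fold), the goblet cell disulfide isomerase AGR2 (2.45-fold) and HNF4A. Those that rose were the goblet cell protease inhibitor SPINK4 (6.90-fold), the mucus lectin ZG16 (7.24-fold), CEACAM6 (5.6-fold), CEACAM7 (4.57-fold), the tetraspanin TSPAN8 (3.80-fold), carbonic anhydrase CA2 (3.28-fold) and KLF4 (2.43-fold). Of these, ZG16 and CEACAM7 entered the test only through the TSA group, in which they were higher. Likewise, ZG16B and HNF4A entered it only through siCONT with mock, in which they were higher. The median change over the members tested was -0.40, against -0.11 over all probes tested.

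GPA33 (A33 antigen), a surface glycoprotein of the intestinal epithelium, had levels of 2.93 and 3.02 in siCONT with mock, 3.55 and 3.63 in depletion with mock, -2.28 and -2.75 in siCONT with TSA, and -1.72 and -0.65 in depletion with TSA. All 4 TSA arrays lay below all 4 mock arrays. TSA changed GPA33 in siCONT by -5.49 (SE 0.35), with an adjusted p of 0.000414, which was 0.0359 with the siCONT arrays averaged. PHGR1 had 0.97 and 0.97 in siCONT with TSA and 1.36 and 2.70 in depletion with TSA, again below every mock array (change in siCONT -3.76, SE 0.47, adjusted p 0.00248). LGALS4 had -1.63 and -1.59 in siCONT with TSA and 0.07 and -0.07 in depletion with TSA (change in siCONT -3.57, SE 0.13, adjusted p 0.000132 and, after averaging siCONT arrays, 0.0324). CEACAM1, the member of its family found on the apical surface of many epithelia, had 1.67 and 1.63 in siCONT with mock, 2.66 and 1.90 in depletion with mock, -0.90 and -0.79 in siCONT with TSA, and -0.72 and -0.26 in depletion with TSA. Here too the TSA arrays lay below the mock arrays without overlap, and the second CEACAM1 probe was also called lower (at least 4.43-fold). That second probe entered the test only through siCONT with mock, in which it was higher.

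VIL1 had levels of 1.17 and 1.19 in siCONT with TSA and 0.97 and 2.07 in depletion with TSA, below the mock arrays of either background. AGR2, an endoplasmic reticulum protein needed for mucin folding, had 7.16 and 7.13, then 7.07 and 7.27 in the mock groups, 5.88 and 5.83 in siCONT with TSA, and 5.62 and 5.84 in depletion with TSA. Its arrays fell into a mock set and a TSA set, whatever the siRNA. ZG16B was not above background in siCONT with TSA (-4.36 and -5.29) and had -1.51 and -0.48 in depletion with TSA. PSCA had -0.28 and -0.31 in siCONT with TSA and 0.92 and 1.18 in depletion with TSA, so that the last group overlapped with siCONT under mock.

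SPINK4 had levels of 1.36 and 1.43 in siCONT with mock, 1.54 and 1.86 in depletion with mock, 4.18 and 4.19 in siCONT with TSA, and 4.18 and 5.03 in depletion with TSA. ZG16 had -4.03 and -2.78, then -2.84 and -1.49 in the mock groups, -0.57 and -0.54 in siCONT with TSA, and -0.09 and 0.27 in depletion with TSA. For both of these goblet cell products all TSA arrays lay above all mock arrays (changes in siCONT of 2.79, SE 0.28, adjusted p 0.00126, and of 2.86, SE 0.55, adjusted p 0.00965). The size for ZG16 depends on siCONT with mock array 1, on which it was not well above background, and the change was 2.23 (adjusted p 0.0489) without that array. CA2, a cytosolic carbonic anhydrase, had 0.76 and 0.77, then 0.95 and 1.58 in the mock groups, 2.43 and 2.53 in siCONT with TSA, and 2.72 and 2.82 in depletion with TSA, likewise without overlap. CEACAM6 had 0.79 and 0.99 in siCONT with TSA and 0.42 and 0.28 in depletion with TSA. CEACAM7, a family member of the mature colon surface, had -3.35 and -3.0 in siCONT with mock, -1.87 and -1.56 in depletion with mock, -0.88 and -1.08 in siCONT with TSA, and -1.80 and -2.26 in depletion with TSA. TSPAN8 had 3.70 and 3.74, 4.07 and 5.35, 5.61 and 5.68, and 3.65 and 5.07 in that order of groups. CEACAM6, CEACAM7 and TSPAN8 were thus highest in siCONT with TSA, while CEACAM1, of the same family as the former, fell there, and CEACAM5 (-2.21 to -0.47 over all arrays) was not called. Whether probes of this family take up RNA of each other was not tested.

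Under normexp background correction HNF4A, CEACAM7, PSCA and ZG16B kept their direction but were under 2-fold.

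Both treatments together were compared with siCONT under mock. Of 28 tested members, 14 were called, 7 higher and 7 lower, where 25.6% of all tested probes were called, 14.5% higher and 11.1% lower. After averaging of the siCONT arrays, 10 of the 14 kept their call, and 15.4% of all probes were called. SPINK4 (9.23-fold) and ZG16 (11.3-fold) rose, as did CA2 (4.0-fold), CEACAM6 (3.87-fold), FCGBP (3.0-fold), CEACAM7 (2.21-fold) and the membrane-bound carbonic anhydrase CA12 (2.16-fold). ZG16, FCGBP, CEACAM7 and CA12 were above background on only 1 siCONT array with mock. They entered this test only through depletion with TSA, in which they were higher. HNF4A entered it only through siCONT with mock, in which it was higher. GPA33 (17.9-fold) and PHGR1 (6.51-fold) were lowest, followed by CEACAM1 (4.40-fold), LGALS4 (3.89-fold), the intestinal cadherin CDH17 (3.06-fold), AGR2 (2.67-fold) and HNF4A (at least 1.89-fold). The median change over the members tested was 0.10, against -0.14 over all probes tested. By role, 3 secretory genes rose and 1 fell of 6 tested, 2 surface genes rose and 4 fell of 9, 2 of 2 carbonic anhydrases rose, 1 of 3 brush border genes fell, and 1 of 7 transcription factors fell.

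ZG16 changed by 3.5 (SE 0.55, adjusted p 0.00341), or by 2.87 (adjusted p 0.0178) without siCONT with mock array 1, and SPINK4 by 3.21 (SE 0.28, adjusted p 0.000466). GPA33 changed by -4.16 (SE 0.35, adjusted p 0.00044) and PHGR1 by -2.70 (SE 0.47, adjusted p 0.00523), the latter by -2.03 without siUHRF1-1 with TSA and by -3.37 without siUHRF1-2 with TSA. CDH17 had levels of 1.79 and 1.79 in siCONT with mock, 2.24 and 1.84 in depletion with mock, 1.25 and 1.30 in siCONT with TSA, and 0.18 and 0.18 in depletion with TSA, so that its lowest arrays were those with both treatments. FCGBP, a large protein of the mucus gel, had -2.83 and -3.10, -1.21 and -1.73, -2.95 and -3.21, and -1.11 and -1.65 in that order of groups. It was higher in both depleted groups than in both siCONT groups, irrespective of TSA. CA12 had -3.62 and -2.94, -2.76 and -1.95, -3.38 and -3.62, and -2.26 and -2.08, also with the depleted arrays uppermost. Several members that led the rise with depletion alone were not called here. FABP1 was below background with both treatments and was not tested. PSCA changed by -0.01 (SE 0.17), CAPN9 by 0.80 (SE 0.41) and ZG16B by 1.20 (SE 0.41, adjusted p 0.0536). LGALS4 and PHGR1, which also rose with depletion alone, were called lower here, whereas CEACAM6, CEACAM7 and FCGBP were called higher in both comparisons.

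The 4 members whose call was lost with the siCONT arrays averaged were HNF4A, CEACAM7, PHGR1 and CA12, with adjusted p of 0.069, 0.077, 0.053 and 0.13. Scaling by the median of each array in place of the 75th percentile moved the median of all probes in this comparison from -0.14 to -0.54, left CEACAM7 and CA12 under the threshold, and gave 5 members higher and 10 lower. Of all probes called, 31.6% were then higher, against 56.8% in the main fit. Under normexp background correction the changes were 0.49 for FCGBP, 0.22 for CEACAM7, 0.21 for CA12 and -0.38 for HNF4A, and none of these was called.

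Depletion was then compared with siCONT within TSA-treated cells. Of 27 tested members, 8 were called, 5 higher and 3 lower, where 8.27% of all tested probes were called, 5.39% higher and 2.87% lower. ZG16B rose most (at least 6.69-fold), followed by FCGBP (3.26-fold), LGALS4 (3.05-fold), PSCA (2.54-fold) and CA12 (2.52-fold). Of these, ZG16B and CA12 entered the test only through the depleted group, in which they were higher. CDH17 (2.14-fold), KLF4 (2.10-fold) and CEACAM7 (2.07-fold) fell. ZG16B (change 3.83, SE 0.41, adjusted p 0.00536) was above background on both arrays of depletion and on neither of siCONT. LGALS4 changed by 1.61 (SE 0.13, adjusted p 0.00234) and CDH17 by -1.10 (SE 0.16, adjusted p 0.00982). GPA33 changed by 1.33 (SE 0.35) and did not pass (adjusted p 0.05). The median change over the members tested was 0.34, against 0.00 over all probes tested. With the siCONT arrays averaged, 1 member (ZG16B, adjusted p 0.0496) and 0.692% of all probes were called. When the 75th percentile was taken over probes above background on all arrays, CDH17, KLF4 and CEACAM7 had changes between -0.99 and -0.94 and were under 2-fold. Under normexp background correction 2 members and 744 of all 23846 tested probes were called.

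The difference between the effects of depletion with and without TSA was tested as an interaction, the change under TSA minus the change under mock. Of 29 tested members, 8 were called, all of them negative, meaning that depletion raised them less, or lowered them more, under TSA than under mock. They were FABP1, CAPN9, PSCA, CEACAM6, CEACAM7, LGALS4, CDH17 and KLF4. Of all tested probes 4.89% were called, 2.83% positive and 2.07% negative. With the siCONT arrays averaged, limma called 0 members and 0% of the probes. FABP1 was below background on all but the 2 arrays of depletion with mock and entered the test only through them, so its fitted interaction (-5.48) is no bound and nothing is read from its call, which leaves 7 other members. CAPN9 rose by 3.46 with depletion under mock and had a change of 0.40 (SE 0.41) under TSA, an interaction of -3.05 (SE 0.58, adjusted p 0.0409). PSCA rose by 4.08 under mock and by 1.35 under TSA (interaction -2.73, SE 0.24, adjusted p 0.00991), and LGALS4 by 3.1 and 1.61 (interaction -1.5, SE 0.18, adjusted p 0.0193). PSCA and LGALS4 were still called higher with depletion under TSA.

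CEACAM6 rose by 1.97 under mock and had a change of -0.53 (SE 0.24) under TSA (interaction -2.51, SE 0.34, adjusted p 0.0231). CEACAM7 rose by 1.46 under mock and fell by 1.05 on the log2 scale under TSA (interaction -2.51, SE 0.31, adjusted p 0.0202). For CDH17 and KLF4 the interaction came from a fall under TSA, since their changes under mock were 0.25 (SE 0.16) and -0.04 (SE 0.14). ZG16B, with changes of 4.49 and 3.83, and FCGBP, with 1.5 and 1.70, had interactions of -0.66 (SE 0.58) and 0.21 (SE 0.37) that were not called. ZG16B was not above background in siCONT with TSA, so nothing is read from the size of its change under TSA or of its interaction. The median interaction over the members tested was -0.65, against 0.06 over all probes tested. Leaving out any one of the 4 siCONT arrays, or siUHRF1-1 with TSA, lowered the number of members called and also that of all probes called (main value 1203). With no filter on dim probes, 1 member and 213 of all 50599 probes were called.

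**Figure D3:**
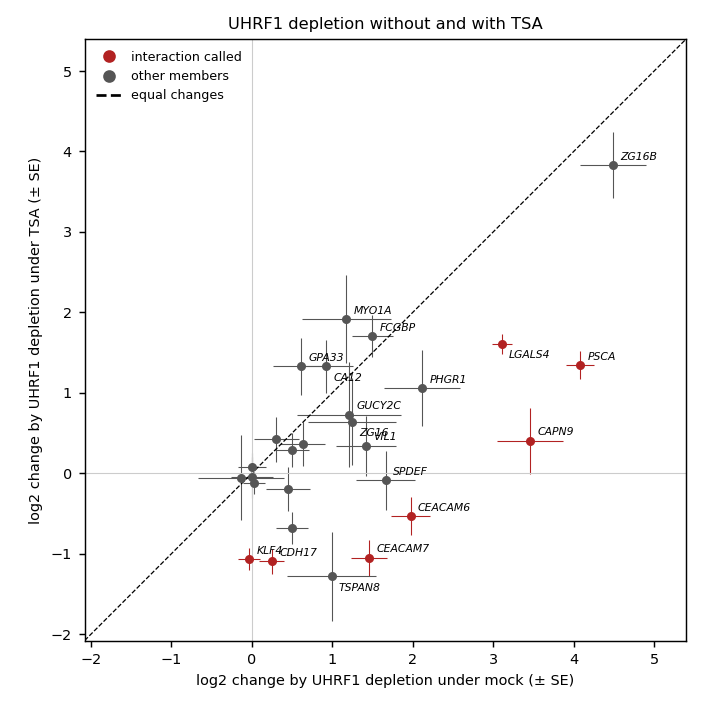
Change by UHRF1 depletion under mock (x axis) against that under TSA (y axis), both on the log2 scale with SE bars, for the 27 members tested in both. Red points are members whose interaction was called, the dashed line marks equal changes, and names are given where either change was at least 0.75 in size. PSCA, LGALS4, CAPN9, CEACAM6 and CEACAM7 lie below the line to the right, while ZG16B and FCGBP lie near it. ZG16B was not above background in siCONT with TSA, so its position on the y axis is uncertain.

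TSA was finally compared with mock within UHRF1-depleted cells, a comparison in which neither group is siCONT. Of 28 tested members, 16 were called, 3 higher and 13 lower, where 20.7% of all tested probes were called, 11.7% higher and 9.01% lower. FABP1 (at least 24.7-fold), LGALS4 (33.5-fold), PHGR1 (28.2-fold), GPA33 (27.3-fold), PSCA (17.0-fold) and ZG16B (9.80-fold) fell most. FABP1 entered the test only through depletion with mock, the group in which it was higher, so nothing is read from its call. CEACAM1 (6.81-fold), CAPN9 (6.31-fold), VIL1 (5.67-fold), SPDEF (5.21-fold), CDH17 (3.63-fold), AGR2 (2.72-fold) and CEACAM5 (2.33-fold) also fell. SPINK4 (7.48-fold), ZG16 (4.78-fold) and CA2 (2.83-fold) rose. Without siUHRF1-1 with mock the change of ZG16 was 1.58 and was not called (adjusted p 0.075). The changes of LGALS4 (-5.07, SE 0.13, adjusted p 3.4e-05) and PSCA (-4.09, SE 0.17, adjusted p 8.2e-05) were many times the spread between the siRNAs. SPDEF, at -2.86 and -2.38 in depletion with TSA, lay below all mock arrays, and in siCONT it had -2.73 and -2.33 with TSA and was not called. The median change over the members tested was -0.68, against -0.04 over all probes tested. The fit with averaged siCONT arrays called 15 of the 16 (all but CEACAM5, adjusted p 0.0637), and 17.6% of all probes.

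This comparison shares no array with that of TSA in siCONT. Of the 25 members tested in both, 8 were called lower in both (GPA33, PHGR1, LGALS4, ZG16B, CEACAM1, VIL1, PSCA and AGR2) and 3 higher in both (ZG16, SPINK4 and CA2). In siCONT, ZG16B was tested only through mock and ZG16 only through TSA, the groups in which they were higher. Of all probes tested in both, 4.02% were called lower in both and 6.26% higher in both. Among the goblet-associated genes SPINK4 and ZG16 were called higher and AGR2 and ZG16B lower.

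**Figure D4:**
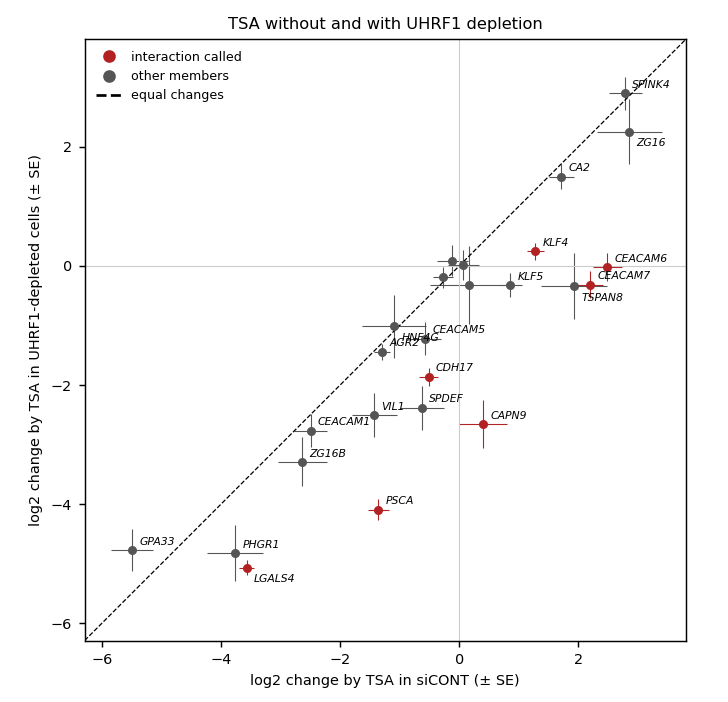
Change by TSA in siCONT cells (x axis) against that in UHRF1-depleted cells (y axis), both on the log2 scale with SE bars, for the 25 members tested in both. Red points are members whose interaction was called, the dashed line marks equal changes, and names are given where either change was at least 0.75 in size. GPA33, PHGR1, LGALS4, ZG16B and CEACAM1 lie in the lower left corner and SPINK4, ZG16 and CA2 in the upper right.

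Besides CDX1 (by its brighter probe), CDX2, HNF4G and KLF5, the members that were tested but called in no comparison were MYO1A and GUCY2C. Their levels lay between -3.66 and -0.97 for the brush border motor MYO1A and between -2.89 and -0.85 for GUCY2C, the receptor of guanylin. GUCY2C was higher with siUHRF1-2 than with siUHRF1-1 under mock (-0.88 and -2.05) and under TSA (-0.85 and -2.72), and siUHRF1-1 lay close to siCONT. MYO1A had -2.40 and -0.97 in depletion with mock and -1.80 and -1.25 in depletion with TSA, against -3.38 to -2.33 and -3.66 to -3.23 in the respective siCONT groups (changes of 1.17, SE 0.55, adjusted p 0.206, and 1.92, SE 0.55, adjusted p 0.0615).

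Other genes of the gut lining were read under both treatments together, from lists that do not overlap with the members, and the shares of all tested probes to set beside them are 14.5% higher and 11.1% lower. Of 21 tested transporters among 31, 9 were higher and 3 lower, led by the chloride channel BEST2 (change 3.57, adjusted p 0.000438), the bile salt and drug exporter ABCC2 (3.05, adjusted p 0.000198) and the bile acid transporter subunit SLC51B (at least 4.13-fold), and by the sodium channel subunit SCNN1A (-2.50, adjusted p 0.000208), the sodium and proton exchanger SLC9A2 (-1.80, adjusted p 0.00422) and the potassium channel KCNQ1 (-1.42, adjusted p 0.011). Of 19 tested transcription factors among 20, 4 were higher and 3 lower. The higher ones were led by CREB3L3 (at least 9.54-fold), MAF (at least 4.50-fold) and PRDM1 (2.52, adjusted p 0.0106), and the lower ones included EHF (-1.94, adjusted p 0.000595) and HES1 (-1.36, adjusted p 0.00879). Of 12 tested brush border structure genes among 18, 3 were higher and 1 lower: the actin bundler ESPN (at least 7.45-fold), the microvillar cadherin CDHR5 (at least 8.61-fold) and KRT20 (1.57, adjusted p 0.0158), and EPS8L3 (-2.82, adjusted p 0.000557). Of 14 brush border enzymes, 12 were not above background on any array by their brightest probe and 0 were called. Of 6 tested genes of lipid handling among 14, FABP6 (at least 2.00-fold) and DGAT2 (1.33, adjusted p 0.000821) were higher and 0 lower. Each gene given here with an "at least" fold was not above background in siCONT with mock. Such genes entered the test only through depletion with TSA, in which they were higher. PRDM1, above background on 1 siCONT array with mock, entered in the same way. The counts of higher genes include all of these.

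Markers of other cell types were read beside these values, as the sum over a list of intensities relative to the 75th percentile. All 3 Paneth cell markers on the array (DEFA5, DEFA6 and REG3A) were not above background on any array. Of 7 fibroblast markers, 0 were above background in siCONT with mock and 2 (COL1A1 and THY1) in depletion with TSA, where the summed level was 0.972 to 1.64, against 0.244 to 0.283 in siCONT with mock. Of 8 immune and endothelial markers, 2 were called higher with both treatments, VWF among them (summed level 2.81 to 4.33, against 0.874 to 0.956). Both entered that test only through depletion with TSA, in which they were higher. CD68 and CD14 were above background on all 8 arrays, and 3 markers, CD3E and PECAM1 among them, on none. Of 8 enteroendocrine markers, CHGA was called higher (summed level 1.54 to 2.16, against 1.46 to 1.58). CHGA entered that test only through depletion with TSA, in which it was higher. Of 6 crypt stem markers, ASCL2 and EPHB2 were called lower, and the summed level was 24.0 to 28.5 with both treatments, 25.2 to 25.3 with TSA alone, 95.4 to 119 with depletion alone and 61.2 to 61.9 in siCONT with mock. The sum moved mainly with ASCL2, a factor of crypt stem cells, which had levels of 5.51 and 5.52 in siCONT with mock and 6.4 and 6.64 in depletion with mock, whereas EPHB2 had 2.61 and 2.66, then 2.45 and 2.61. The part of these markers in the changes of the members was not tested.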

How the data were processed

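Total RNA of 8 DLD1 samples was hybridised to Agilent one-colour (Cy3) arrays. The deposited files hold linear spot intensities, extracted by the authors with Agilent Feature Extraction 10.7 (10.7.3.1 per the file headers, probe positions hg19), with local background subtracted and no scaling between arrays. Groups came from the labels.

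Levels are log2(processed intensity) minus the array's 75th percentile over non-control probes, without outlier spots. A gene was its probe with the highest mean over 8 arrays. The 24591 probes above background throughout at least 1 group were fitted with limma 3.58.1 (R 4.3.3, lmFit and eBayes, 4 group means, two-sided, 4 residual degrees of freedom) and Benjamini-Hochberg adjusted over the probes tested per comparison, after a test on simulated data. A second fit averaged the siCONT arrays of each agent (2 residual degrees of freedom). Nothing says that siCONT arrays came from separate cultures, so p-values measure only the spread between these samples, and their number limits the precision.

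Where a gene was not above background on either array of a group, the fold is a lower bound ("at least"), set against the lowest signal above background on each array of that group or the probe's own, whichever was higher.

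The members and lists were chosen with earlier results of these data known. Named with array values are the called members, up to 6 higher and 6 lower per comparison, and CDX2, HNF4A, KLF4, KLF5 and VIL1, and from the other lists up to 3 higher and 3 lower with both treatments, except for an item that is not reported here. Promoters of CA1, CA2, CA4, CDH17, CDX1, GUCY2C, HNF4G, PHGR1, PSCA, VIL1 and ZG16 were not analysed here. Alternatives were the deposited series table, normexp, other scalings and filters, the methods' t-test, a replicate block, no fold minimum, any probe of a gene, and leaving out each array.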

Additional observations from a re-analysis of the deposited data

Results flagged for a closer look

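The effect of UHRF1 depletion differed between mock and TSA for 8 members by the limma interaction test, given as the log2 change under TSA minus that under mock. The values were -5.48 for FABP1, -3.05 for CAPN9, -2.73 for PSCA, -2.51 for CEACAM7, -2.51 for CEACAM6, -1.5 for LGALS4, -1.35 for CDH17 and -1.04 for KLF4. FABP1 was below background outside depletion with mock and entered the test only through that group, so nothing is read from its value. For CAPN9, PSCA, CEACAM6, CEACAM7 and LGALS4 both siRNAs gave a higher level than siCONT under mock. For CDH17 and KLF4 both siRNAs gave a lower level than siCONT under TSA. The adjusted p lay between 0.00991 for PSCA and 0.0409 for CAPN9, and with the siCONT arrays averaged it lay between 0.239 and 0.555.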

How the results depend on the processing

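Each count of called members was recomputed under 21 alternative settings. Of 72 calls of a member in a comparison, 7 were lost under no setting in which the gene was tested. Apart from the averaged siCONT arrays and the adjusted methods' t-test, 35 were lost under no such setting. A gene that a setting did not test was not counted as lost there, which held for dim members under the filter for probes above background on all arrays. With the siCONT arrays averaged to 1 sample, the counts were 0 for depletion under mock (main value 10), 2 for TSA in siCONT (16), 1 for depletion under TSA (8) and 0 for the interaction (8). The methods' t-test after adjustment gave 0 for depletion under mock, 5 for both treatments (14), 0 for depletion under TSA, 0 for TSA in depleted cells (16) and 2 for the interaction, against 10, 11, 8, 11 and 10 unadjusted. Of all probes the adjusted t-test called 0, 2715, 0, 0 and 437 in these comparisons, and the unadjusted one 755, 5079, 1864, 3286 and 2337. Normexp background correction gave 2 for depletion under TSA (744 of 23846 probes). No filter on dim probes gave 6 for depletion under mock (406 of 50599 probes) and 1 for the interaction (213 of 50599). The filter for probes above background on all arrays gave 5 for depletion under TSA (1093 of 19900 probes). Leaving out 1 array gave 4 to 12 for depletion under mock, 13 to 16 for TSA in siCONT, 12 to 15 for both treatments, 2 to 9 for depletion under TSA, 14 to 17 for TSA in depleted cells and 1 to 10 for the interaction, the lowest counts for depletion under TSA (2) without either siCONT array with TSA. With any probe of a gene, CDX1 was called for depletion under mock at 2.48, since its dimmer probe rose, where the brighter probe had a change of 0.00.

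With the replicate block, 9 members were called for depletion under mock, 16 for TSA in siCONT, 15 for both treatments, 9 for depletion under TSA, 16 for TSA in depleted cells and 6 for the interaction. Of all probes, 813, 4364, 6132, 1916, 5004 and 675 were called in that order, against 923, 4319, 6078, 1971, 4953 and 1203 in the main fit. The calls lost were SPDEF for depletion under mock (adjusted p 0.0718) and KLF4 (0.0542) and CDH17 (0.0521) for the interaction. The numbers do not pair siCONT with siUHRF1 arrays. The difference between array 1 and array 2 correlated across 19900 probes at 0.34 between the depleted groups, which share their siRNAs, and at -0.06 to 0.07 for the other pairs of groups. Median scaling moved the median of all probes to -0.54 for both treatments, -0.35 for depletion under TSA, -0.43 for TSA in depleted cells and -0.28 for the interaction, and lowered the share of higher probes among those called from 56.8% to 31.6%, from 65.2% to 29.1%, from 56.5% to 30.1% and from 57.8% to 24.2%. With the 75th percentile over probes above background on all arrays these shares were 72.0%, 75.5%, 68.3% and 61.4%, and 66.2% (main value 55.8%) for TSA in siCONT. No called member changed sign under any scaling.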
